A study of Saccharomyces cerevisiae with 6 samples.

Results

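After 6 h of doxycycline, transcript ratios were available for 4160 of the 6212 identifiers on the arrays, namely every open reading frame with a value on both dye-swapped arrays of that time. The cells were budding yeast of strain mmr09-4, in the cml476 background, with a kanMX4-tetO7 cassette directly upstream of the YPI1 reading frame, so that doxycycline shuts YPI1 off. Treated cells received 100 µg/ml doxycycline in an ethanol:water mix in YPD, a rich glucose medium, for 6 h. Untreated cells carried the same cassette and received the ethanol:water mix alone. The earlier times of the study, 2 and 4 h, had the same design and are used here only for comparison. Each time had 1 RNA pair on 2 arrays, with doxycycline in Cy3 on replicate 1 of 6 h and in Cy5 on replicate 2. The SD over these arrays is technical. All samples carried the cassette. An effect of doxycycline itself therefore cannot be told apart from that of losing YPI1, and YPI1 was compared with its tetO7-driven level, not its native one.

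Ypi1 is a small regulatory protein of Glc7, the catalytic subunit of yeast protein phosphatase 1. Glc7 takes part in glycogen and glucose metabolism, cell wall synthesis, transcript processing and chromosome segregation, and partner proteins direct it to each of these. Ypi1 works with Sds22 on the nuclear pool of Glc7, and the series is concerned with what Ypi1 does during mitosis.

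All values are log2 ratios of doxycycline over untreated cells, so 1 stands for a 2-fold higher and −1 for a 2-fold lower transcript. Ratios are relative within an array, and ratios alone do not give transcript levels. The arrays of 6 h held values for 4723 genes on replicate 1 and 4250 on replicate 2, with medians of 0.01 and −0.10. Across genes, none of them a replicate of another, the arrays correlated with r = 0.871, while the swapped arrays of 2 h and 4 h correlated with r = −0.396 and −0.174. The labels do not state how swapped arrays were turned, and they give Cy3 for both channels of replicate 2 of 2 h, which was taken as the swap. The direction of the 2 h and 4 h arrays therefore rests on the channel labels and on YPI1, which was below 0 on all 6 arrays, and every comparison of 6 h with those times uses it. The SD of the ratios was 0.78 and 0.81 on the arrays of 6 h, and between 0.22 and 0.32 on the arrays of 2 and 4 h. Of 3856 genes with both arrays at 2 h and at 4 h, 465 (12.1%) lacked the pair at 6 h. The missing share was 4.29% among genes up to 500 bp and 24.7% among those of 2000 to 3000 bp. The ratios hold no absolute levels, so the mating type or any other state of the cells could not be checked from markers. Of the a-type markers, 6 had values, with a median of 0.37, and of the alpha-type markers only SAG1 had one, at −0.80.

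YPI1 (YFR003C) had log2 ratios of −6.44 and −6.17 on replicates 1 and 2 of 6 h, 79.0 times below untreated cells by their mean. No other gene was as low on either array. The earlier arrays had −4.06 and −4.73 at 2 h, and −5.32 and −5.64 at 4 h, so the ranges of the 3 times did not overlap and the lowest lay at 6 h. CDC26 (YFR036W), a small subunit of the anaphase-promoting complex on the same chromosome arm, was next, with −3.17 and −2.86 at 6 h. Its arrays had −1.89 and −1.92 at 2 h, and −1.94 and −2.25 at 4 h, all above those of 6 h. Genes near YPI1 and CDC26 by systematic name did not share these ratios. NIC96, a nuclear pore subunit numbered just before YPI1, had 0.26 and 0.14. RPN11, the proteasome lid protease numbered just after it, had 0.30 and −0.25, on opposite sides of 0. The genes around CDC26 were named after their values were seen. YFR035C had −0.90 on both arrays, PHO4, the transcription factor of the phosphate pathway, had 1.03 and 1.17, RSC8, a chromatin remodelling subunit, had 1.21 and 1.25, and QCR6, a respiratory chain subunit, had 0.76 and −0.08.

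**Figure D1:**
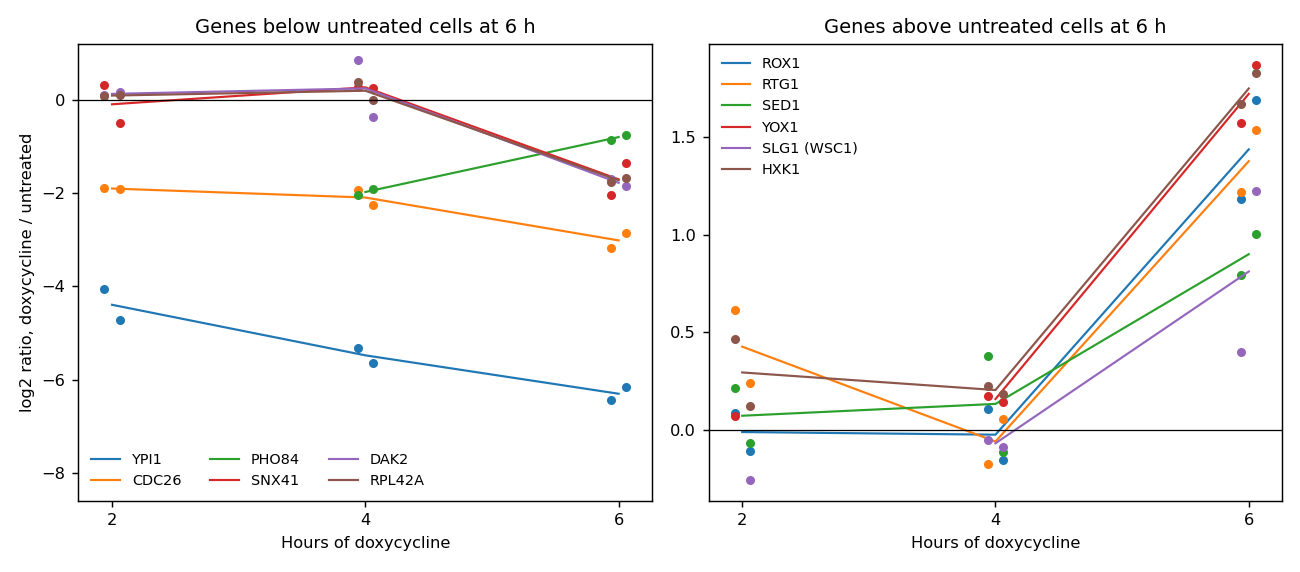
log2 ratio of doxycycline over untreated cells against hours of doxycycline for 12 genes, with a point per array and a line through the means of both arrays; the left panel holds genes below and the right panel genes above untreated cells at 6 h. YPI1 and CDC26 were low from 2 h on. SNX41, DAK2 and RPL42A on the left and ROX1, HXK1 and SED1 on the right lay outside the earlier arrays' range at 6 h. These were chosen by their 6 h values, so this shows no course in time. PHO84, YOX1 and SLG1 lack a pair of arrays at 2 h.

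The mean of both arrays was past 2-fold, with 1 sign on both, for 408 genes on the high side (9.81% of 4160) and 336 on the low side (8.08%). The values next to the limit were 1.0005 inside and 0.9985 outside on the high side, and −1.0015 inside and −0.999 outside on the low side. In all, 504 genes (12.1%) had opposite signs on the arrays, and none of these was past 2-fold on each array.

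The ratios went with the length of the gene. The median log2 ratio was −1.02 for 45 genes of up to 300 bp, −0.58 for 579 genes of 500 to 750 bp, −0.08 for 583 genes of 1000 to 1250 bp and 0.54 for 371 genes of 1500 to 1750 bp. Above 1750 bp it also went with the chromosome. Among genes of 2000 to 2250 bp, the median was −0.50 for the 99 on chromosomes X to XIII and 1.09 for the 69 elsewhere. Among genes of 1000 to 1250 bp, it was −0.64 for the 207 on chromosomes IV, XV and XVI and 0.11 for the 376 elsewhere. The median was 1.31 for 45 genes of 2750 to 3000 bp, and the 106 genes of 3000 to 3500 bp had 0.41. Spearman's rho of ratio and length across genes was 0.628 at 6 h (0.645 and 0.576 on the arrays), against 0.151 at 2 h and −0.294 at 4 h. Its source was not tested.

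**Figure D2:**
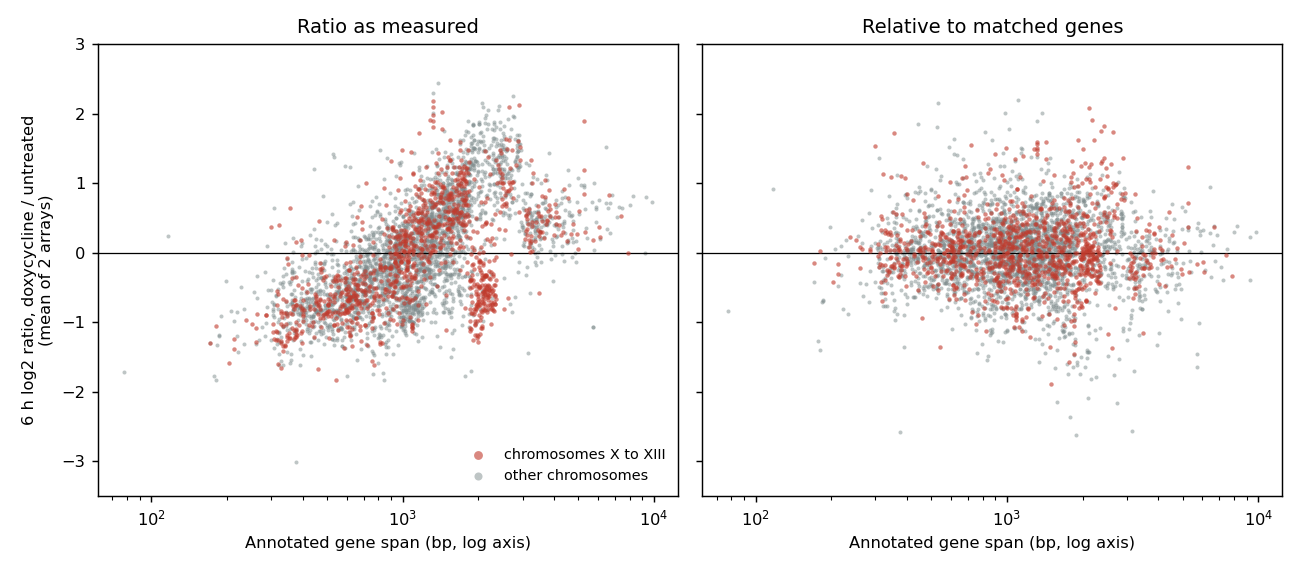
Mean 6 h log2 ratio against annotated gene span in base pairs on a log axis, as measured (left) and relative to matched genes (right), with 1 point per gene; YPI1 lies below both panels. On the left, short genes lie below 0, and chromosomes X to XIII part from the others near 2000 bp; on the right, rho with length was 0.0212.

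Each gene was therefore also set against matched genes, the 20 genes of its own chromosome closest to it in length, by taking their median from its ratio on each array. The median of matched genes accounted for 52.6% of the variance of the 6 h ratios, and rho with length was 0.0212 afterwards. Relative to matched genes, 118 of 3921 genes were past 2-fold higher (3.01%) and 115 past 2-fold lower (2.93%). On replicate 2 alone the higher count was 191, and on replicate 1 alone 110. Of 395 genes past 2-fold higher as measured and with a matched value, 61 were also past it relative to matched genes, and of 298 lower as measured, 42 were. The matching left some unevenness. Among genes of 1750 to 3000 bp, 10.6% of the 263 on chromosomes X to XIII were past 2-fold higher and 2.28% lower, while 1.61% of the 373 elsewhere were higher and 9.38% lower. Among the 3022 genes of up to 1750 bp, 2.75% were higher and 2.05% lower. A long gene named below is therefore less certain than a short one. Matched array values are not given for every such gene.

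**Figure D3:**
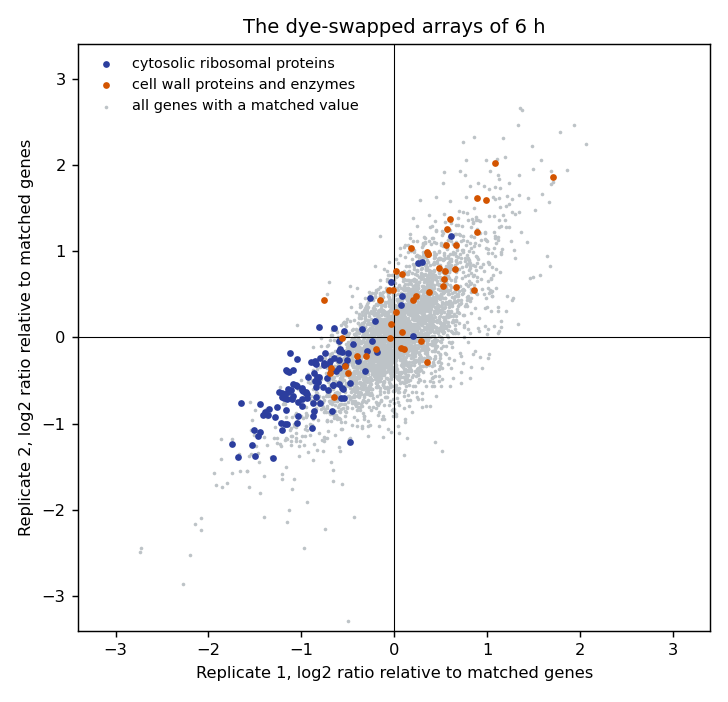
log2 ratio relative to matched genes on replicate 2 against replicate 1 of 6 h, with 1 point per gene and YPI1 off the lower left of the axes. Cytosolic ribosomal protein genes (blue) lie mainly in the lower left field, with 107 of 120 below 0 on both arrays, and 27 of 46 cell wall genes (orange) lie in the upper right field.

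Of the genes furthest above their matched genes, those with a role in transcription are given first. ROX1, the repressor of genes of oxygen-poor growth, had log2 ratios of 1.18 and 1.69, while its 20 matched genes ranged between −1.15 and 0.93. Against them it was 1.94 and 2.46, the highest mean of all genes. RTG1, a transcription factor of the signal from mitochondria to the nucleus, had 1.22 and 1.54, and the median of its matched genes, 486 to 590 bp long, was −0.83. SOK2, a regulator of growth form under protein kinase A, had 1.25 and 1.40, or 1.71 and 1.80 relative to matched genes. All 3 lay above 0 on both arrays by either measure. YOX1, a repressor acting early in the cell cycle, had 1.57 and 1.87. HAC1, the activator of the unfolded protein response, had 0.97 and 1.62, or 1.14 and 1.73 relative to matched genes.

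Further high genes act on RNA and translation. NOP12, a nucleolar protein of large-subunit rRNA maturation, had the highest measured ratio, 1.71 and 3.17, and 1.35 and 2.65 relative to matched genes. The arrays differed by over 1 here, and replicate 2 was the higher. NIP1, a subunit of initiation factor eIF3, had 1.23 and 1.73, above all 20 matched genes. PUF3, which binds transcripts of mitochondrial proteins, had 1.68 and 2.51, or 1.17 and 2.31 relative to matched genes. PAT1, an activator of mRNA decapping, had 1.98 and 2.12, with arrays close to each other.

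High genes of the cell surface and of metabolism were PMA1, the plasma membrane proton pump, at 1.96 and 2.53, PLB2, a phospholipase B, at 1.15 and 1.77, and LYS4, homoaconitase of lysine synthesis, at 1.53 and 2.67. PLB2 stood 1.78 and 2.38 above its matched genes, and PMA1 0.73 and 1.29, its matched genes being high as well. A group of 6 unnamed reading frames of exactly 1323 bp lay between 1.80 and 2.30 as measured, and between 1.41 and 1.89 relative to matched genes. YAR010C, YJR026W and YJR028W belong to it, with 1.48 and 3.11 for YAR010C. Frames of equal length may share sequence and signal, so they are not counted as separate observations. The identifier YFL-TyA, named after its values were seen, had 0.86 and 1.39.

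Apart from YPI1 and CDC26, the genes furthest below their matched genes had varied roles. SNX41, a sorting nexin of endosome traffic, had log2 ratios of −2.05 and −1.36, while its 20 matched genes ranged between 0.44 and 1.49. DAK2, a dihydroxyacetone kinase, had −1.71 and −1.85, or −2.20 and −2.52 relative to matched genes. ADP1, a putative ABC transporter, had −1.31 and −1.58, and ATG22, a vacuolar exporter of amino acids, −1.56 and −1.22. HUL5, a ubiquitin ligase of the proteasome, had −0.80 and −0.92, and HOS3, a histone deacetylase, −1.05 and −0.92. These 6 genes lay below all 20 of their matched genes, as 73 of the 115 genes on the low side did. KCH1 had 0.10 and −2.33 as measured, and its place among the lowest, at −0.50 and −3.28 relative to matched genes, rests on replicate 2. PHO84, the high-affinity phosphate transporter, had −0.85 and −0.74 at 6 h, against −2.04 and −1.92 at 4 h, so its measured ratio was nearer 0 at the later time. Set against matched genes, whose median was 0.81, it had −1.59 and −1.54 at 6 h.

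Cytosolic ribosomal proteins, the structural proteins of the cytoplasmic ribosome, had the lowest median of the lists. Of 120 measured genes, 81 were past 2-fold lower as measured and 0 higher (8.08% and 9.81% of all genes were). Below 0 on both arrays were 114 (48.3% of all genes were). Ribosomal protein genes are short, and relative to matched genes 22 were past 2-fold lower and 0 higher (2.93% and 3.01% of all genes were). The lower count was 44 on replicate 1 alone and 12 on replicate 2 alone. Below 0 on both arrays relative to matched genes were 107 (37.1% of all genes were). The median of the 120 genes relative to matched genes was −0.70 (−0.86 and −0.56 on the arrays), against 0.01 over all genes. It was −0.74 when other ribosomal protein genes were left out of the matched ones. In all, 92 of the 120 (76.7%) lay below at least 18 of their 20 matched genes, against 14.1% of all genes. Spans include introns, which many ribosomal protein genes have, so such a gene was matched with genes longer than its spliced transcript. Ratios rose with length, so such matching can lower its value, by an amount that was not tested. The median was −0.58 for the 30 genes with spans of up to 600 bp and −0.78 for the 90 with longer spans. The group was thus low in both classes of span.

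The lowest members relative to matched genes were RPL42A at −1.77 and −1.68 as measured, RPL25 at −2.09 and −1.57, RPL42B at −1.88 and −1.60, RPL29 at −1.98 and −1.67, and RPL39 at −1.89 and −1.78, all of the large subunit. RPL42A and RPL42B, 2 copies of 1 protein, lay 1.54 and 1.44 below their matched genes. The large subunit had a median of −0.74 over 66 genes with 14 past 2-fold lower, the small subunit −0.65 over 48 genes with 7, and the stalk proteins −0.57 over 5 genes with 0. Most yeast ribosomal proteins are made from a pair of gene copies. Both copies lay below 0 relative to matched genes in 39 of 43 measured pairs, and the copies differed by a median of 0.19. In 1 pair they differed by over 1: RPL31A had −0.87 and −0.85 on the arrays, and RPL31B 0.61 and 1.18. That pair was named after its values were seen. Copies of 1 protein can share signal on an array, so they are not independent.

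Among 239 measured identifiers without an entry in the reference annotation, the median was −0.62, with 38 past 2-fold lower and 13 higher as measured (8.08% and 9.81% of all identifiers were). Of these, 4 are numbered beside ribosomal protein genes on the opposite strand and were picked out after their values were seen. YJL188C, beside RPL39, had −1.94 and −2.02, and YGL102C, beside RPL28, had −1.53 and −1.16. YLR062C, beside RPL22A, had −1.48 and −1.25, and YPR044C, beside RPL43A, had −1.63 and −1.24. Whether such array spots report their own transcript or the neighbour's was not tested.

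Other parts of the translation machinery did not share the low median. Nucleolar ribosome biogenesis factors, which assemble ribosomal subunits, had a median of −0.09 over 116 genes, with 1 gene past 2-fold higher, NOP12, and 1 lower, NOP10, a small subunit of the H/ACA snoRNPs at −1.80 and −1.76. As measured and centred, that median was above 0, at 0.18. Of all genes, 3.01% were past 2-fold higher relative to matched genes and 2.93% lower. RNA polymerase I and III subunits had −0.03 over 22 genes (−0.08 and 0.01 on the arrays), with 0 past 2-fold either way. Translation factors had −0.08 over 36 genes (−0.13 and 0.12 on the arrays), with NIP1 past 2-fold higher and 0 lower. Within eIF3, NIP1 had 1.58 and 2.06 relative to matched genes and RPG1, another subunit, −0.44 and −0.92. By this measure the 2 subunits lay on opposite sides. Whether the unevenness left by the matching adds to this gap was not tested. Cytosolic tRNA synthetases had 0.04 over 20 genes. Mitochondrial ribosomal proteins, which are also short genes, had a median of −0.62 as measured and −0.03 over 63 genes relative to matched ones, with MRPL4 and MRP20 past 2-fold higher.

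**Figure D4:**
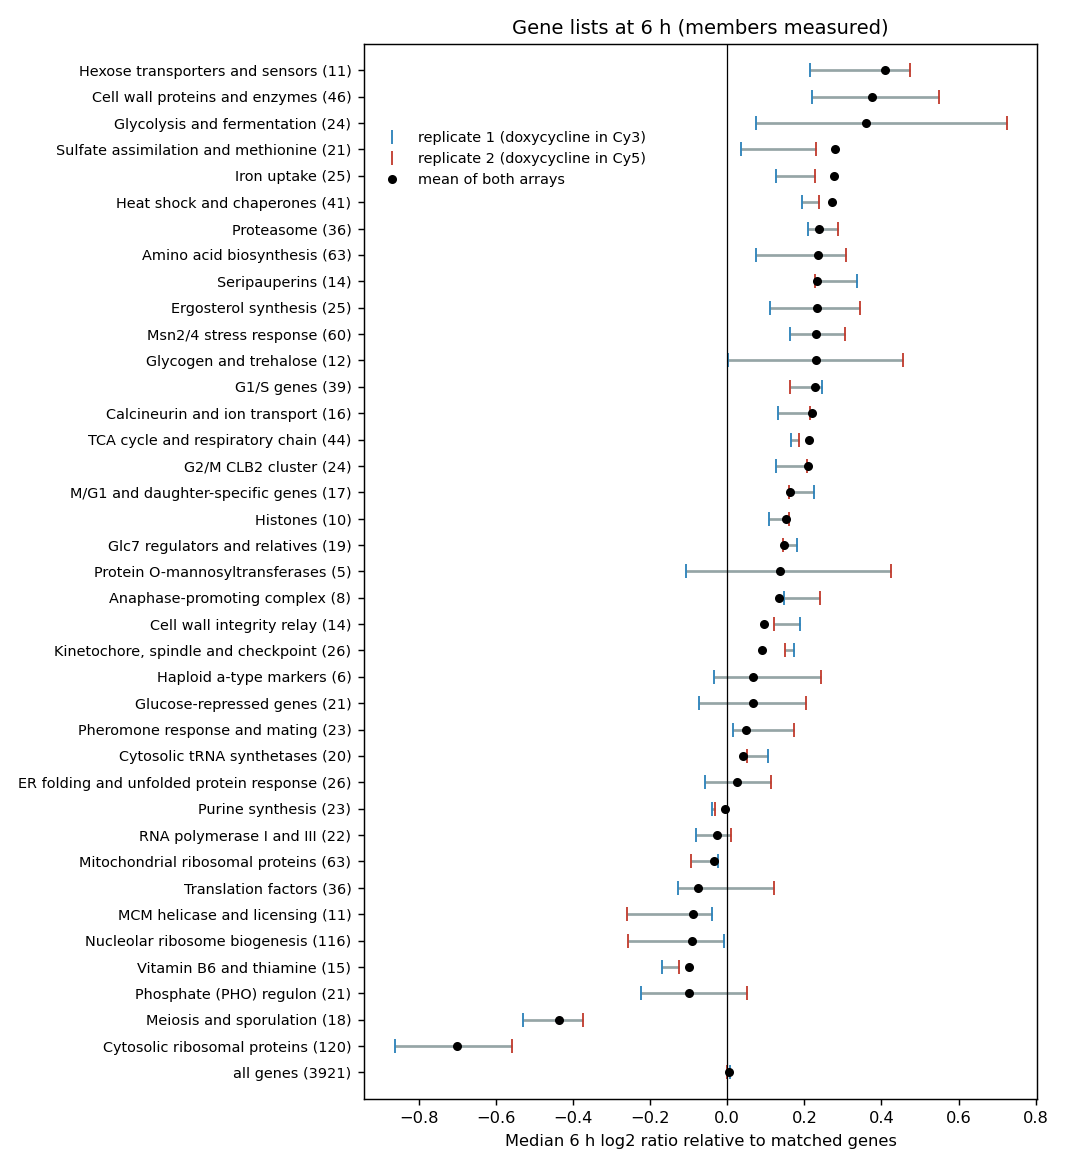
Median 6 h log2 ratio relative to matched genes for 38 gene lists with at least 5 measured members and for all genes, with the number of members in brackets; dots give the median of the mean of both arrays and ticks the median on each array. Cytosolic ribosomal proteins (−0.70) and meiosis genes (−0.43) lie furthest below 0. The hexose list (0.41), cell wall genes (0.37) and glycolysis genes (0.36) lie furthest above, in an order that differs with 10 or 40 matched genes. The measured members of the hexose list are transporters and regulators.

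Cell wall genes were among the lists with the highest medians. Of 46 cell wall proteins and enzymes, 5 were past 2-fold higher relative to matched genes and 0 lower (3.01% and 2.93% of all genes were), with a median of 0.37 (0.22 and 0.55 on the arrays), and 27 were above 0 on both arrays (37.7% of all genes were). SED1, a major wall protein of resting cells, had 0.79 and 1.00 as measured, while its matched genes all lay between −1.19 and −0.50. CCW14, an inner wall glycoprotein, had 0.46 and 1.54, and GAS5, a glucan-remodelling enzyme, had 1.03 and 1.73. CIS3 and PIR3, of the Pir family of linked wall proteins, had 0.20 and 1.14, and 0.91 and 1.23. Replicate 2 was the higher array for each of these 5 genes. SIM1, of a family of wall-associated proteins, was the lowest relative to matched genes, with −0.31 and −0.13 as measured.

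In the cell wall integrity pathway, which signals wall damage, 2 sensors were past 2-fold higher relative to matched genes and 1 kinase lower. Of all genes, 3.01% were past 2-fold higher and 2.93% lower. SLG1, also called WSC1, had 0.40 and 1.22 as measured and stood 1.12 and 1.88 above matched genes. MID2, another sensor, had 0.64 and 1.03. The kinase MKK1 had −0.87 and −0.85, below 18 of its 20 matched genes, and the list of 14 genes had a median of 0.10 (0.19 and 0.12 on the arrays). Of the 5 measured protein O-mannosyltransferases, which add mannose to surface proteins, PMT2 had 1.25 and 2.04 and PMT3 −0.70 and −0.59. PMT3 lay below all 20 of its matched genes, at −1.85 and −1.74 relative to them. It spans 2262 bp and lies outside chromosomes X to XIII. Of the genes of 1750 to 3000 bp there, 9.38% were past 2-fold lower.

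Cell cycle genes held both signs. Of 39 genes of the G1/S transition, 4 were past 2-fold higher relative to matched genes and 0 lower (3.01% and 2.93% of all genes were), with a median of 0.23. These were YOX1, given above, PCL1, a cyclin of the kinase Pho85, at 1.31 and 0.81, ASF1, a histone chaperone, at 1.24 and 0.63, and GIC2, an effector of Cdc42, at 0.35 and 0.66. CLN2, a G1 cyclin, had 0.95 and 1.37, and HCM1, a forkhead activator of S phase, 1.30 and 1.94, both above all 20 matched genes. CLB5, a cyclin of S phase, had −0.72 and −0.42. The 24 genes of the G2/M cluster had a median of 0.21 relative to matched genes. PMA1 was past 2-fold higher and MYO1 past it lower (3.01% and 2.93% of all genes were). MYO1, the myosin of the contractile ring, had 0.09 and −0.01 as measured, on opposite sides of 0. It was low only relative to matched genes, at −0.96 and −1.06. CLB2, the main mitotic cyclin, had 0.77 and 1.03, above 19 of 20 matched genes. Of 17 genes active at the M/G1 border and in daughter cells, DSE2, a secreted daughter-cell protein, had 1.14 and 1.38, and PIR3 was also past 2-fold. CTS1, the chitinase of cell separation, had 1.23 and 1.95.

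Genes of DNA replication licensing held both signs. Of 11 measured genes of the MCM helicase and origin licensing, ORC3 was past 2-fold lower relative to matched genes and 0 were higher. Over all genes, 2.93% were past 2-fold lower and 3.01% higher. ORC3 had −1.17 and −0.99 as measured. ORC2 had −0.13 and −0.40 and ORC4 −0.84 and −0.47, and relative to matched genes their means were −0.95 and −0.84. MCM7, a helicase subunit, had 1.56 and 1.71, or 0.51 and 0.28 relative to matched genes. The median of the list was −0.09 relative to matched genes and −0.85 with a length curve taken from each array instead. Histones, as short genes, had a median of −0.61 as measured and 0.15 relative to matched genes over 10 genes, with 0 past 2-fold. HTB2, a histone H2B, had 0.07 and 0.20, above all 20 of its matched genes.

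In the mitotic machinery, 1 of 26 kinetochore, spindle and checkpoint genes was past 2-fold higher relative to matched genes and 2 were lower (3.01% and 2.93% of all genes were), with a median of 0.09 (0.17 and 0.15 on the arrays). MTW1, a kinetochore subunit, had 0.95 and 1.77. NDC80, of the outer kinetochore, had −0.63 and −0.48, or −1.21 and −1.58 relative to matched genes. CIN8, a spindle kinesin, had 0.69 and −0.48 as measured, so it was low on both arrays only relative to matched genes. Apart from CDC26, the anaphase-promoting complex had no member past 2-fold lower relative to matched genes among 8 measured. ACM1, an inhibitor of its activator Cdh1, had 0.54 and 0.51 and was past 2-fold higher, and CDC16, a core subunit, had 0.65 and 0.74. APC11, the catalytic RING subunit, had −1.21 and −0.91 as measured and −0.39 relative to matched genes.

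The list of Glc7, its regulators and its relatives had 19 measured genes, PPZ1, PPZ2 and SIS2 being among the relatives. All were within 2-fold as measured apart from YPI1 and 5 high genes, which include PPZ2 and SIS2. GLC7 itself had 0.14 on both arrays, while its matched genes, all higher, left it at −0.43 and −0.78. It was matched by its span of 1464 bp, which counts any intron, and what this adds to the gap was not tested. GLC8, an activator of Glc7, had 0.76 and 0.12, and relative to matched genes 1.49 and 0.69, above all 20. SDS22 had 0.30 and 0.11, and SHP1, which acts on nuclear Glc7, had 0.65 and 0.80. PTA1, of the mRNA cleavage factor that holds Glc7, had 1.38 and 1.89, and SCD5, which directs Glc7 to cortical actin, 1.58 and 2.25. The list had a median of 0.15 relative to matched genes, with GLC8 and YPI1 past 2-fold, 1 on each side. Of all genes, 3.01% were past 2-fold higher and 2.93% lower.

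**Figure D5:**
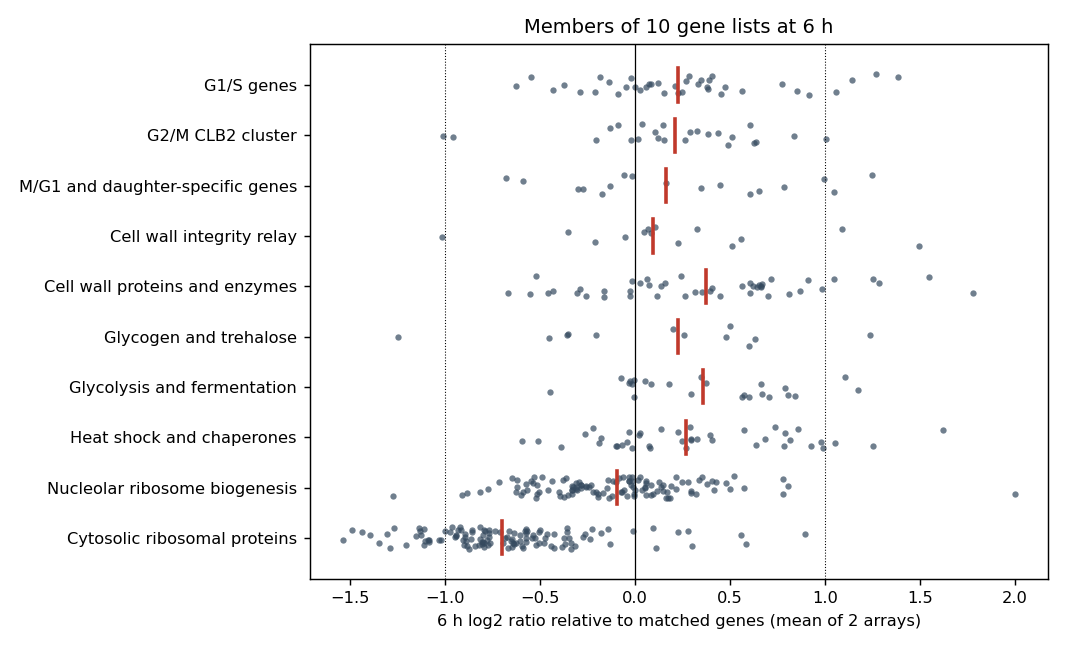
6 h log2 ratio relative to matched genes, mean of both arrays, for each measured member of 10 gene lists, with a red line at the median and dotted lines at 2-fold. The ribosomal proteins centre on −0.70, and the cell wall list on 0.37 with SED1 furthest right; the other 8 lists spread on both sides of 0.

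Glycolysis genes had a median above 0, with a large gap between the arrays. Of 24 glycolysis and fermentation genes, 2 were past 2-fold higher relative to matched genes and 0 lower (3.01% and 2.93% of all genes were). The median was 0.36, but 0.08 on replicate 1 and 0.72 on replicate 2. ADH1, the main alcohol dehydrogenase, had 0.01 and 0.83 as measured, and PDC6, a minor pyruvate decarboxylase, 1.22 and 1.90. HXK1, a hexokinase repressed by glucose, had 1.67 and 1.83, with arrays close to each other and above all 20 matched genes. MDH2, cytosolic malate dehydrogenase, had 0.54 and 0.95, and HXT15, a hexose transporter, had −0.66 and −0.81, so glucose-repressed genes held both signs. Their median over 21 genes was 0.07, with −0.07 and 0.21 on the arrays and −0.13 with a length curve in place of matched genes. The list of hexose transporters and sensors also holds the regulators STD1, MTH1, MIG1, MIG2 and MIG3, and its sensors SNF3 and RGT2 lacked values at 6 h. Of the transporters, HXT3, HXT4 and HXT7 had 0.58, 0.465 and 0.56 relative to matched genes. HXT1, HXT2 and HXT6 had 0.01, −0.12 and −0.10. The 11 measured genes of the list had a median of 0.41 with 0 past 2-fold. It was 0.21 on replicate 1 and 0.47 on replicate 2, and 0.24 with 10 and 0.29 with 40 matched genes, below the cell wall median of 0.33 and 0.44 under the same settings. Among 12 genes of glycogen and trehalose, GSY2, the main glycogen synthase, had 0.50 and 0.94 and stood 1.08 and 1.40 above matched genes. NTH1, which breaks down trehalose, had −0.47 and −0.14, 1.53 and 0.96 below matched genes.

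Genes of the mitochondrial TCA cycle and respiratory chain had a median of −0.53 as measured and 0.21 relative to matched genes, so the sign of this list depends on the matching. Past 2-fold higher relative to matched genes were 5 of 44, and 2 were past it lower (3.01% and 2.93% of all genes were). Among the higher ones, NDI1, the internal NADH dehydrogenase, had 1.70 and 1.55 as measured. SDH4, a subunit of succinate dehydrogenase, had 0.11 and 0.73, and IDH2, isocitrate dehydrogenase, 0.18 and 0.46. ACO1, aconitase, had 0.60 and 0.52 and turned to −0.20 when a length curve without chromosomes was taken from each array. Of the 2 genes past 2-fold lower, GUT2, mitochondrial glycerol-3-phosphate dehydrogenase, had −0.85 and −1.18, below all 20 matched genes.

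Stress and folding genes were mixed. The 41 heat shock proteins and chaperones had a median of 0.27 relative to matched genes. SSA2, a cytosolic Hsp70, SSC1, its mitochondrial relative, and HSC82, an Hsp90, were past 2-fold higher, and 0 were lower. Over all genes, 3.01% were past 2-fold higher and 2.93% lower. SSA2 had 1.05 and 1.06 as measured. SSC1, at 0.47 and 0.53, and HSC82, at 0.49 and 0.34, turned to −0.13 and −0.29 with the length curve. The 60 genes of the Msn2/4 stress response had a median of 0.23 relative to matched genes (0.16 and 0.31 on the arrays). GSY2 and HXK1 were past 2-fold higher by this measure, and NTH1 and CTT1 past it lower (3.01% and 2.93% of all genes were). CTT1, the cytosolic catalase often used as a marker of this response, had −0.82 and −0.57, while HSP26, a small heat shock protein, had 0.42 and 0.45. In the endoplasmic reticulum, KAR2, the lumenal Hsp70, had 0.63 and 0.82 and stood 1.17 and 1.42 above matched genes. ERO1, an oxidase of disulfide formation, had −0.44 and −0.05, and HRD1, a ubiquitin ligase for misfolded proteins, −0.61 and −0.45. Both were past 2-fold lower relative to matched genes. Proteasome subunits had a median of 0.24 over 36 genes with 0 past 2-fold, BLM10, an activator, being the highest at 1.40 and 1.63.

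Among nutrient genes, the 63 for amino acid synthesis had a median of 0.24 relative to matched genes (0.08 and 0.31 on the arrays). Of them, 3 were past 2-fold higher relative to matched genes and 0 lower (3.01% and 2.93% of all genes were). These were LYS4, GLN1, glutamine synthetase, at 0.39 and 0.50, and ILV2, acetolactate synthase, at 0.33 and 0.45, which turned to −0.30 with the length curve. Of 25 iron genes, FIT3, a wall mannoprotein of siderophore uptake, had 0.35 and 1.06 and TIS11, which destabilizes transcripts in iron shortage, 0.40 and 0.98. Both were past 2-fold higher relative to matched genes (3.01% of all genes were). FTH1, a vacuolar iron transporter, at −0.76 and −0.30, was past 2-fold lower (2.93% of all genes were). Ergosterol synthesis genes had a median of 0.23 over 25 genes (0.11 and 0.34 on the arrays), with only ROX1, a regulator in that list, past 2-fold. In the phosphate regulon PHO4 was past 2-fold higher and PHO84 lower among 21 genes (3.01% and 2.93% of all genes were). The list median relative to matched genes was −0.10, with opposite signs on the arrays (−0.22 and 0.05). VTC1, of the polyphosphate polymerase complex, had −1.64 and −1.14. Calcineurin and ion transport genes had 0.22 over 16 genes (0.13 and 0.21 on the arrays) with PMA1 past 2-fold. Sulfate assimilation and methionine genes had 0.28 over 21 genes, but 0.04 on replicate 1 and 0.23 on replicate 2, and vitamin B6 and thiamine genes −0.10 over 15 (−0.17 and −0.13 on the arrays), both with 0 past 2-fold. Of 23 purine synthesis genes, IMD4, an IMP dehydrogenase, was past 2-fold higher at 0.14 and 0.44 as measured, and it turned to −0.35 with the length curve; the median of the list was −0.01.

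Meiosis and sporulation genes, which are largely silent in growing cells, had the next lowest median among lists of at least 5 measured members. Of 18 measured genes, 2 were past 2-fold lower relative to matched genes and 0 higher (2.93% and 3.01% of all genes were), with a median of −0.43 (−0.53 and −0.37 on the arrays), and 12 were below 0 on both arrays (37.1% of all genes were). SPS100, a spore wall protein, had −1.31 and −0.82, and ADY4, of the meiotic spindle pole, −0.34 and −0.87. In the mating group of 23 genes 0 were past 2-fold, and AGA1, the anchor of the mating agglutinin, had 1.71 and 2.40 as measured and 0.92 relative to matched genes.

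The difference between 6 h and the earlier times was tested with limma on the means of the 3 RNA pairs, 6 h against the average of 2 h and 4 h. The single pair of 6 h was assumed to vary as much as 2 h and 4 h did from each other, with 1 residual degree of freedom, although its ratios had the wider SD given above. The calls hold only under that assumption, and rose and fell here mean that a gene passed this test. Relative to matched genes, 721 of 3237 genes rose (22.3%) and 687 fell (21.2%) at an adjusted p of 0.05. As measured, 1058 of 3391 rose (31.2%) and 1258 fell (37.1%). Without replicate 2 of each time, 390 rose and 423 fell relative to matched genes, and 682 rose as measured. When each array was scaled to the same median absolute deviation, 22 genes rose and 3 fell as measured, and 0 passed in limma relative to matched genes, where 632 had an unadjusted p under 0.05. The scaling takes out the wider spread of the ratios at 6 h.

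The 118 genes past 2-fold higher relative to matched genes were chosen by their 6 h ratios, so values nearer 0 at the other times follow from the choice and show no course in time. Their median was 0.04 at 2 h over the 94 measured there and −0.08 at 4 h over 117. The 115 lower genes, chosen alike, had medians of −0.04 at 2 h and 0.11 at 4 h. PLB2 differed from its earlier times by 2.25 ± 0.15, ROX1 by 2.24 ± 0.14 and RTG1 by 2.00 ± 0.16 (limma difference relative to matched genes ± SE). SNX41 differed by −2.75 ± 0.16 and DAK2 by −2.50 ± 0.15. These 5 passed the test, and lost it when the arrays were scaled. The 108 tested ribosomal protein genes had a median difference of −0.81 relative to matched genes. It was 0.37 for 39 tested cell wall genes and −0.40 for 14 meiosis genes. YPI1 itself fell further, with a difference of −0.98 ± 0.20, and CDC26 with −0.58 ± 0.15, both relative to matched genes. For GLC7 the difference was −0.72 ± 0.14 relative to matched genes, chosen by its span with any intron, and 0.07 ± 0.18 as measured.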

How the data were processed

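Values are the authors' deposited log2 ratios of doxycycline over untreated cells, 1 per open reading frame and array. The log base is not stated, log2 is assumed, and normalization is not given in the sources used here. Per the description in the labels, spots under 120 µm or under 100 units were dropped, so values are missing for dim spots. Signal was not analysed here, so the depth behind each value is unknown, and precision is limited by how many arrays there are. The labels give Cy3 for both channels of replicate 2 of 2 h.

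Of 6212 identifiers, 5662 were found in the R64 annotation, which gave symbols and gene spans. Both arrays of 6 h hold the same RNA and were averaged, with no p for 6 h alone. Genes past 2-fold had a mean of at least 1 in size with 1 sign on both arrays. Matched genes are the 20 of a gene's own chromosome closest to it in length. The lmFit and eBayes steps of limma 3.58.1, run in R 4.3.3 on 3 RNA pairs, tested 6 h against 2 h and 4 h, two-sided, with p-values adjusted by Benjamini-Hochberg over all genes with 6 values and a limit of 0.05. With 1 residual degree of freedom, its spread is that between 2 h and 4 h and not between biological replicates. The steps were tested on simulated data with equal spread at all times, which cannot test the assumption on the 6 h pair.

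The members, the 39 gene lists and the tests were chosen with earlier results of these data known. Genes named are YPI1, CDC26, GLC7, SDS22, SHP1, GLC8, PHO84, NIC96 and RPN11, the 15 highest and 15 lowest ratios, the 12 highest and 12 lowest relative to matched genes, the 10 highest and 10 lowest differences from earlier times that passed limma, the 6 members of a list furthest from 0, and others marked as picked after their values were seen. Genes CLB5 and SIM1 were also named after their values were seen. Replicate numbers 1 and 2 do not pair samples across times: same-numbered arrays deviated from their time means with r = 0.573 for 2 h and 4 h, −0.706 for 2 h and 6 h, and −0.540 for 4 h and 6 h. A planned description of promoter motifs was not made, since no promoter sequence was used here. Alternatives covered left-out arrays, centring, scaling, length curves (lowess, span 0.3), other numbers of matched genes, fold limits, the log base and variance models.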

Additional observations from a re-analysis of the deposited data

Results flagged for a closer look

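The tests of 6 h against the earlier times are listed here because they compare the effect of doxycycline between times, with limma and with the lone 6 h pair assumed to vary like the others. Under that assumption 721 genes rose and 687 fell relative to matched genes, and as measured 1058 rose and 1258 fell. The largest rises relative to matched genes that passed the test were those of PLB2 (2.25), BSC1 (2.25), ROX1 (2.24), NOP12 (2.07), RTG1 (2.00), YGL230C (1.90), YAR010C (1.82), SOK2 (1.82), NIP1 (1.79) and YHL049C (1.77), as log2 differences. The largest falls were those of SNX41 (−2.75), DAK2 (−2.50), HOS3 (−2.22), HUL5 (−2.15), ATG22 (−2.12), YOL153C (−1.85), KCH1 (−1.83), YPR089W (−1.82), PMT3 (−1.77) and SMP3 (−1.76). None of these 20 genes passed when the arrays were scaled to the same median absolute deviation. YAR010C and KCH1 also lost the call under other settings, and replicate 1 of 6 h had KCH1 at 0.10. With 2 arrays per time, no array could be tested for standing apart from its group.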

How the results depend on the processing

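The counts past 2-fold at 6 h moved with the limit and the correction. As measured, the higher count was 126 with a length curve removed, 878 at 1.5-fold, 735 if the values are natural logs and 267 where each array had to pass (an alternative added after seeing the data), and ranged over 521 to 524 with 1 array left out. The lower count was 1167, 929 and 192 under the last 3 of those settings, and 303 to 445 with 1 array left out. Relative to matched genes, the higher count was 419 at 1.5-fold, 310 as natural logs, 65 with each array past the limit and 110 to 191 with 1 array left out, 191 being that without replicate 1. The lower count was 383, 286, 76 and 133 to 134.

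The limma counts as measured were 682 to 985 higher and 965 to 1140 lower with 1 replicate left out at each time, 703 and 791 with the length curve, and 22 and 3 with scaled arrays. Relative to matched genes they were 390 to 719 higher and 423 to 649 lower with 1 replicate left out, 0 and 0 with scaled arrays, 246 and 292 with the replicate number as a block over 6 arrays, 346 and 386 with 6 arrays and no block, and 677 and 658 with 6 arrays and the dye as a term (1093 and 1336 as measured), a fit added after seeing the data. As measured, the replicate block gave 720 and 1021. The numbers do not pair the samples. Leaving out 2 h or 4 h leaves no spread to test against and was not run.

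The ribosomal protein median was −1.10 with centred arrays and no matching, and −0.86 to −0.56 with 1 array left out. Ribosomal protein genes past 2-fold lower numbered 76 at 1.5-fold, 61 as natural logs and 12 to 44 with 1 array left out, 12 without replicate 1. With the length curve, ACO1 (−0.20), SSC1 (−0.13), HSC82 (−0.29), ILV2 (−0.30) and IMD4 (−0.35) turned below 0. The cause of these moves was not tested. Without matching, the centred medians turned to −0.57 for histones, −0.49 for the TCA cycle list and −0.38 for seripauperins, and to 0.18 for nucleolar biogenesis, 0.31 for translation factors and 0.34 for purine genes.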

Other observations

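The 140 measured genes among the outermost 10 at each chromosome end had a median of −0.03 relative to matched genes, with 4 past 2-fold higher and 8 lower (3.01% and 2.93% of all genes were), and the 3781 inner genes had 0.01. The seripauperins, a family of short cell wall genes near chromosome ends, had a median of −0.43 as measured and 0.23 relative to matched genes over 14 members, none of them past 2-fold relative to matched genes.

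The part of the 6 h ratios that differed between the dyes went with that of the earlier times. Across genes, none of them a replicate of another, the difference between the array with doxycycline in Cy5 and the array with it in Cy3 correlated with r = 0.706 between 6 h and 2 h, and with r = 0.540 between 6 h and 4 h, replicate 2 of 2 h being taken as the array with doxycycline in Cy3. The SD over genes of that difference, halved, came to 0.25 at 2 h, to 0.19 at 4 h and to 0.20 at 6 h, while the SD of the mean of both arrays came to 0.16 at 2 h, to 0.16 at 4 h and to 0.76 at 6 h.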
